A study of Mus musculus with 6 samples.

Results

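The 42 genes described here encode ribosome biogenesis and nucleolar factors. They were taken from a list of Ensembl gene IDs with their symbols, drawn up by function but with earlier results of these data known. The rule itself sets no threshold on a measured value. All 42 were found among the 22322 genes of the table. They comprise 8 genes of ribosomal RNA (rRNA) transcription and abundant nucleolar proteins, 6 core proteins of small nucleolar ribonucleoproteins (snoRNPs), 10 genes of the small-subunit processome, 5 of later 40S assembly and 13 of 60S assembly.

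Ribosome footprints, the short mRNA fragments covered by ribosomes, were counted in CD4+ T cells of female C57BL/6J mice aged 6 weeks. The cells were isolated from spleen and lymph nodes by negative selection. The cells of the first group were resting, and those of the other were activated with beads carrying antibodies against CD3 and CD28, for a time not given in the sources used here. There were 3 libraries in each group, numbered 2, 3 and 4 in both. All carry the labels untreated and 0 h, that is, before the inhibitors of transcription or translation used elsewhere in the study. The labels call them biological replicates without naming animals or cultures, so a p-value here covers only how these libraries vary, which may be technical. In such bulk samples fewer cells of a type and less RNA per cell cannot be told apart. T cell identity could not be checked against marker genes, because only these 42 IDs were paired with symbols. No matched mRNA measurement was used here, so a footprint count combines the amount of mRNA with the number of ribosomes on it.

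Ribosomes are built in the nucleolus. RNA polymerase I transcribes a long pre-rRNA there, snoRNPs guide its methylation and pseudouridylation, and the small-subunit processome cleaves out and folds the 18S part. Separate sets of factors then assemble the 40S and 60S subunits and pass them to the cytoplasm. A resting lymphocyte is small with a small nucleolus, and nucleolar enlargement after stimulation is a classical sign of its growth before division. Many of these genes are textbook targets of the transcription factor Myc.

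Coding-sequence (CDS) counts summed to between 437200 and 1074656 per library, and between 10322 and 11004 genes were detected in each. After the filter on low counts 6775 genes were left, and they held 97.5% of CDS counts. All 42 members passed it. Bysl and Rrp1b would not have passed in every resting library at its threshold of 17.2 CPM (CDS counts scaled to a common library size of 1e6). This threshold applies before TMM scaling, whereas all other CPM values here are TMM-scaled. These 2 genes were thus tested because they were higher in activated cells, and their folds rest on few resting counts.

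CDS footprints rose in activated cells for 41 of the 42 genes and fell for 0 (edgeR quasi-likelihood test, adjusted p under 0.05). Over all 6775 genes tested, 24.1% rose and 21.6% fell, 45.7% in either direction. The exception was Wdr12, and Polr1a was the gene nearest to the threshold among those that rose. The rise was at least 2-fold for 39 of the 42, against 14.7% of all genes tested, and at least 4-fold for 23, against 4.22%. The median log2 fold change was 2.09 (4.27-fold) over the 42 genes and -0.04 over all genes tested. All log2 changes are activated over resting, relative to TMM scaling between libraries. With library totals alone the median of all genes moved to -0.38 and that of the 42 genes to 1.76, with 40 genes higher and 0 lower.

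The 3 activated CPM values lay above the 3 resting values for all 42 genes, Wdr12 included, against 28.1% of all genes tested. The lowest activated value was between 1.102 and 8.62 times the highest resting value, with a median of 3.21. These factors were not computed over all genes tested. Counted by fold, 3 genes changed by less than 2-fold, 16 by 2- to 4-fold, 18 by 4- to 8-fold and 5 by more than 8-fold, where 1.48% of all genes tested were called and rose by more than 8-fold. The last 5 were Rrp1b, Bysl, Polr1b, Nolc1 and Gnl3, whose proteins belong to 3 different roles. Bysl was the only gene of later 40S assembly among them. The counts by fold and by separation of the groups, here and above, include Rrp1b and Bysl. Both were tested because they were higher in activated cells. Their resting counts were 4, 8 and 5 (Rrp1b) and 9, 10 and 5 (Bysl) in replicates 2, 3 and 4. Counts without such genes were not examined. Across the 42 genes the log2 change and the resting level had a Spearman correlation of -0.609. This is a description only, since both quantities contain the same resting counts.

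**Figure D1:**
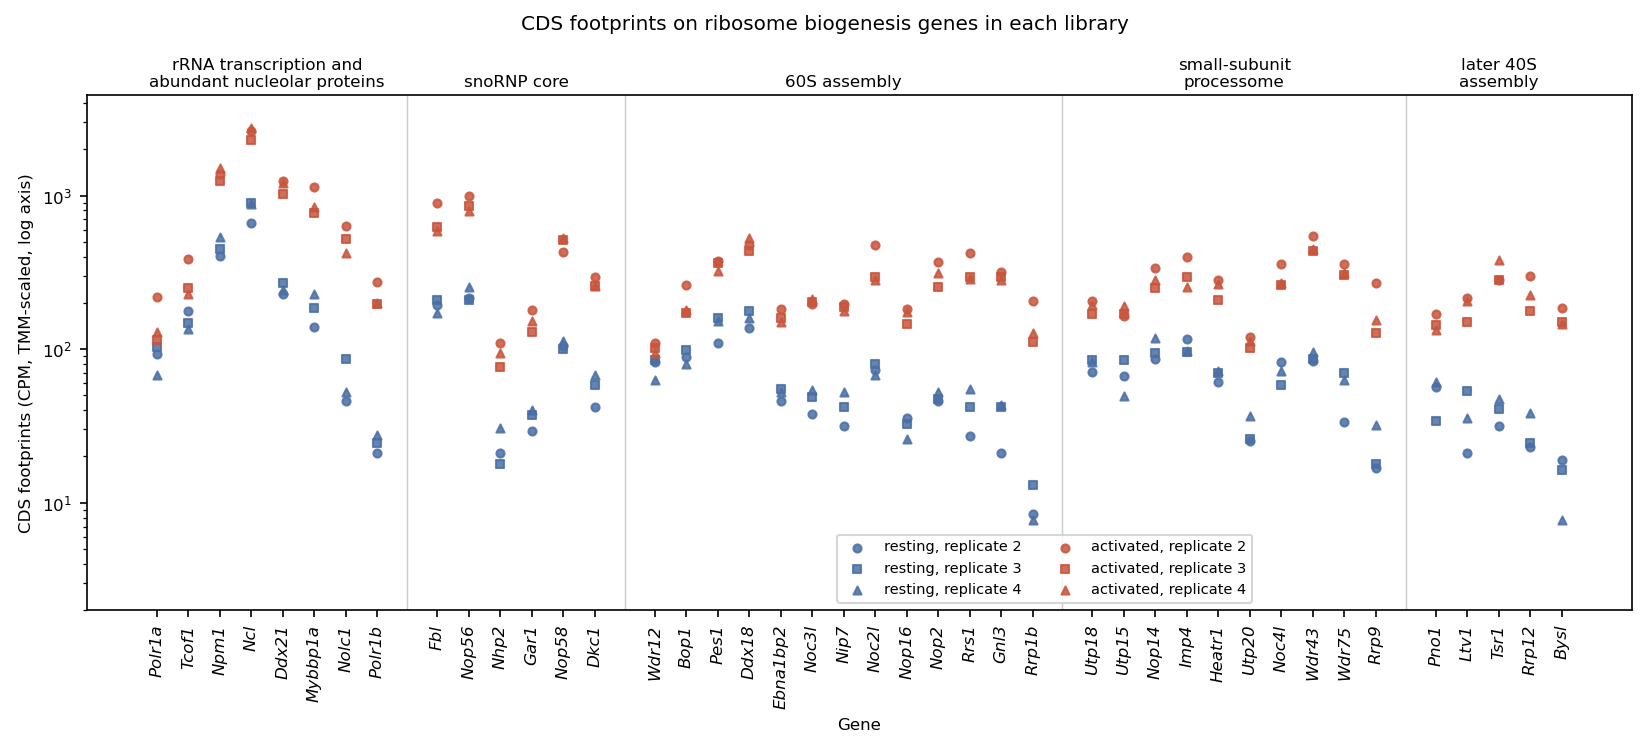
CDS footprints in CPM (TMM-scaled, log axis) of each of the 42 genes, grouped by role, with 1 point per library. Blue points are resting and red points activated libraries, circles replicate 2, squares replicate 3 and triangles replicate 4. For every gene the 3 red points lie above the 3 blue points, by the smallest margin for Polr1a and Wdr12.

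As a set the 42 genes held 0.426%, 0.497% and 0.506% of CDS counts in the resting libraries, against 1.61%, 1.32% and 1.44% in the activated ones (replicates 2, 3 and 4). The mean went from 0.476 ± 0.044% to 1.46 ± 0.15% (SD, n = 3), a 3.06-fold difference. The 95% Wilson interval of each library's share, which covers counting error only, ran from 0.407% to 0.445% in resting replicate 2 and from 1.30% to 1.35% in activated replicate 3, the libraries with the lowest share in each group. Nucleolin (Ncl) alone held 18.5% of the members' counts in resting cells and 15.4% after activation, and without it the share went from 0.388% to 1.23%, a 3.18-fold difference. By role the mean share grew 2.83-fold for rRNA transcription and abundant nucleolar proteins, 3.23-fold for snoRNP core proteins, 3.05-fold for the small-subunit processome, 3.12-fold for 60S assembly and 4.90-fold for later 40S assembly. Replicate 2 stood apart in both groups. Of the 42 genes, 35 had their highest activated CPM in activated replicate 2, and 26 had their lowest resting CPM in resting replicate 2. The difference between the group means of the whole share was 0.981 percentage points, and it was 0.903 without activated replicate 2 and 0.955 without resting replicate 2.

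**Figure D2:**
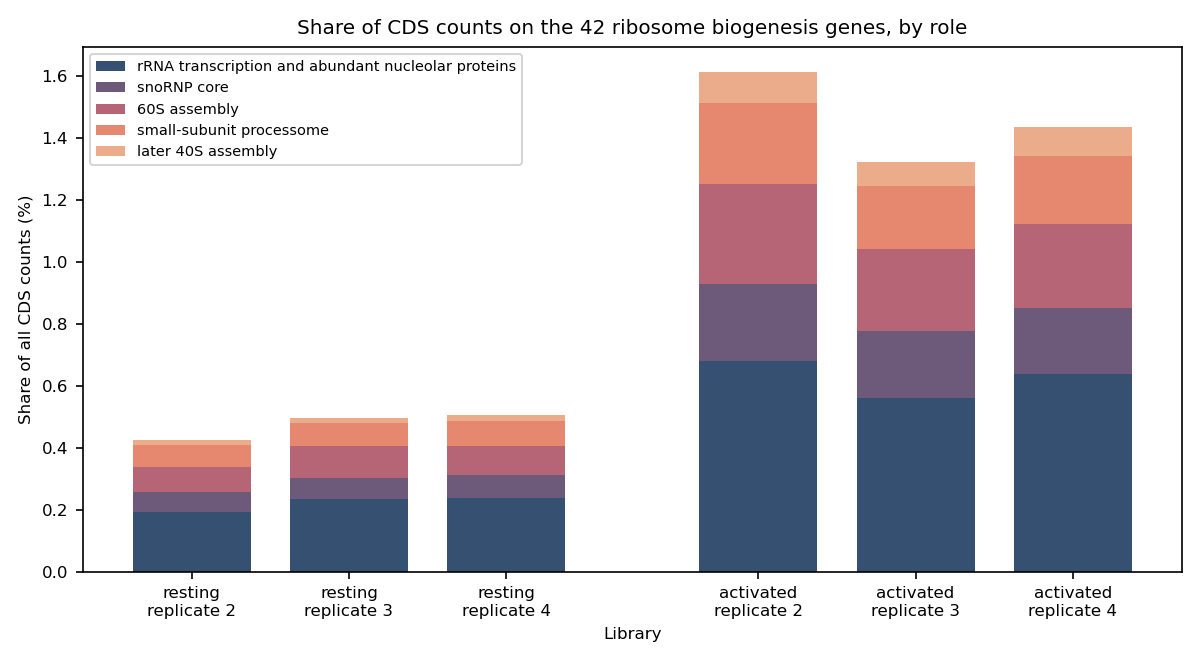
Stacked bars give the share of all CDS counts (percent, axis from 0) that lay on the 42 genes in each of the 6 libraries, with a colour for each role. Resting bars reach 0.426% to 0.506% and activated bars 1.32% to 1.61%.

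The members' promoters were searched for the E-box CACGTG, the palindromic site recognised by Myc with Max and by related factors, so that both strands are read at once. RefSeq promoter windows for GRCm38.p6, from 250 bases before to 50 bases after the gene start, were matched by symbol for 36 of the 42 genes. These 36 genes had 40 windows, and a gene was counted if any of its windows held the motif. The letters CACGTG were present in 10 of these 36 genes (27.8%). Of 17492 protein-coding genes with such a window 8.91% held them, and of all 27025 genes with a window 8.09%. The median over genes of the count of CG dinucleotides in a window was 20 for the members and 15 for protein-coding genes. For a gene with several windows the highest count was taken. The part of this CG count in the share with CACGTG was not tested. The 10 genes were Imp4, Ltv1, Mybbp1a, Nop2, Pes1, Pno1, Tsr1, Utp18, Utp20 and Wdr43. Their median log2 change in CDS footprints was 2.09, and that of the 26 genes whose windows lack these letters was 2.12. In 7 of the 10 the motif began 3 to 41 bases into the transcribed part. The following 30-base stretches are the sites that lie wholly before the start, with CACGTG in capitals, and they show that the flanking bases differ.
Imp4: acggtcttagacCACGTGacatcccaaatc
Nop2: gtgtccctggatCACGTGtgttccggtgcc
Utp18: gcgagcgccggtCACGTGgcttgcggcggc
The motif of Imp4 begins 121 bases before the start (shown is chr1:34439696-34439725, plus strand), that of Nop2 60 bases before it (chr6:125131811-125131840, plus strand) and that of Utp18 20 bases before it (chr11:93885769-93885798, minus strand). The log2 changes of these 3 genes were 1.62, 2.67 and 1.23. Whether Myc or any other factor had a part in the rise of the members was not tested.

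Among the 8 genes of rRNA transcription and abundant nucleolar proteins, all rose, against 24.1% of all genes tested. At least 2-fold rises were seen in 6 (14.7% of all genes) and at least 4-fold rises in 4 (4.22%). Their median log2 change was 1.94. The pair of large RNA polymerase I subunits lay at opposite ends of this group. Polr1b (ENSMUSG00000027395.14), the second largest subunit, had 21.03, 24.3 and 27.7 CPM in the resting libraries against 273, 197 and 199 CPM in the activated ones (replicates 2, 3 and 4). Each activated value was at least 7.13 times each resting value. Its log2 change was 3.15 with SE 0.23 (edgeR, adjusted p = 2.46e-08), an 8.90-fold rise. Polr1a (ENSMUSG00000049553.10), the largest subunit, had 92.5, 104 and 67.6 CPM in the resting libraries against 218, 114 and 129.9 CPM in the activated ones (replicates 2, 3 and 4). The groups came close to touching, at 114 and 104 CPM, and activated replicate 2 stood well above the other two. The log2 change was 0.77 with SE 0.24 (edgeR, adjusted p = 0.0169), a 1.71-fold rise. Polr1a did not pass the threshold without activated replicate 2 (log2 change 0.51, edgeR adjusted p = 0.0516), without resting replicate 4 (0.60, edgeR adjusted p = 0.0845) or with library totals alone (0.43, edgeR adjusted p = 0.141).

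The ratio of Polr1b to Polr1a counts within a library needs no scaling between libraries. It was 0.227, 0.234 and 0.409 in the resting libraries against 1.25, 1.73 and 1.53 in the activated ones, a 5.33-fold difference of the geometric means. The groups did not overlap (exact two-sided permutation p = 0.1, the smallest that 3 against 3 libraries can give, and 0.26 adjusted over the 13 gene pairs compared in this way). Leaving out each library gave log2 differences between 2.27 and 2.69, against 2.42 with all libraries. How often the groups separate for other gene pairs was not examined, here or for the pairs below.

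Nucleolin and nucleophosmin, abundant proteins that bind and chaperone pre-rRNA and assembling subunits, rose by near-equal folds. Ncl (ENSMUSG00000026234.11), the member with the most counts (not per length), had 658, 892 and 882 CPM in the resting libraries against 2636, 2310.5 and 2757 CPM in the activated ones (replicates 2, 3 and 4). Every activated library was at least 2.59 times above every resting library. The log2 change was 1.66 with SE 0.16 (edgeR, adjusted p = 4.84e-07). Npm1 had 463 ± 66.7 CPM in resting cells and 1378 ± 129 CPM after activation (SD, n = 3), a log2 change of 1.57. The ratio of Ncl to Npm1 counts was between 1.62 and 1.99 in resting and between 1.83 and 1.92 in activated libraries (exact two-sided permutation p = 0.4), and the ranges overlapped.

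The other 4 genes of this group spread widely. Nolc1, which encodes the snoRNP chaperone Nopp140, went from 61.5 ± 21.4 to 526 ± 105 CPM (SD, n = 3), an 8.39-fold rise (log2 change 3.07 with SE 0.22; edgeR, adjusted p = 2.85e-08). Tcof1 encodes treacle, a Nopp140-related protein that serves RNA polymerase I transcription, and it rose 1.86-fold, from 153 ± 21.2 to 287 ± 84.4 CPM (SD, n = 3; edgeR adjusted p = 0.00182). Ddx21, an RNA helicase of rRNA transcription and processing, rose 4.68-fold from 247 ± 20.4 to 1159 ± 121 CPM. Mybbp1a, a nucleolar regulator of rRNA synthesis, rose 4.90-fold from 184 ± 45.1 to 913 ± 191 CPM.

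**Figure D3:**
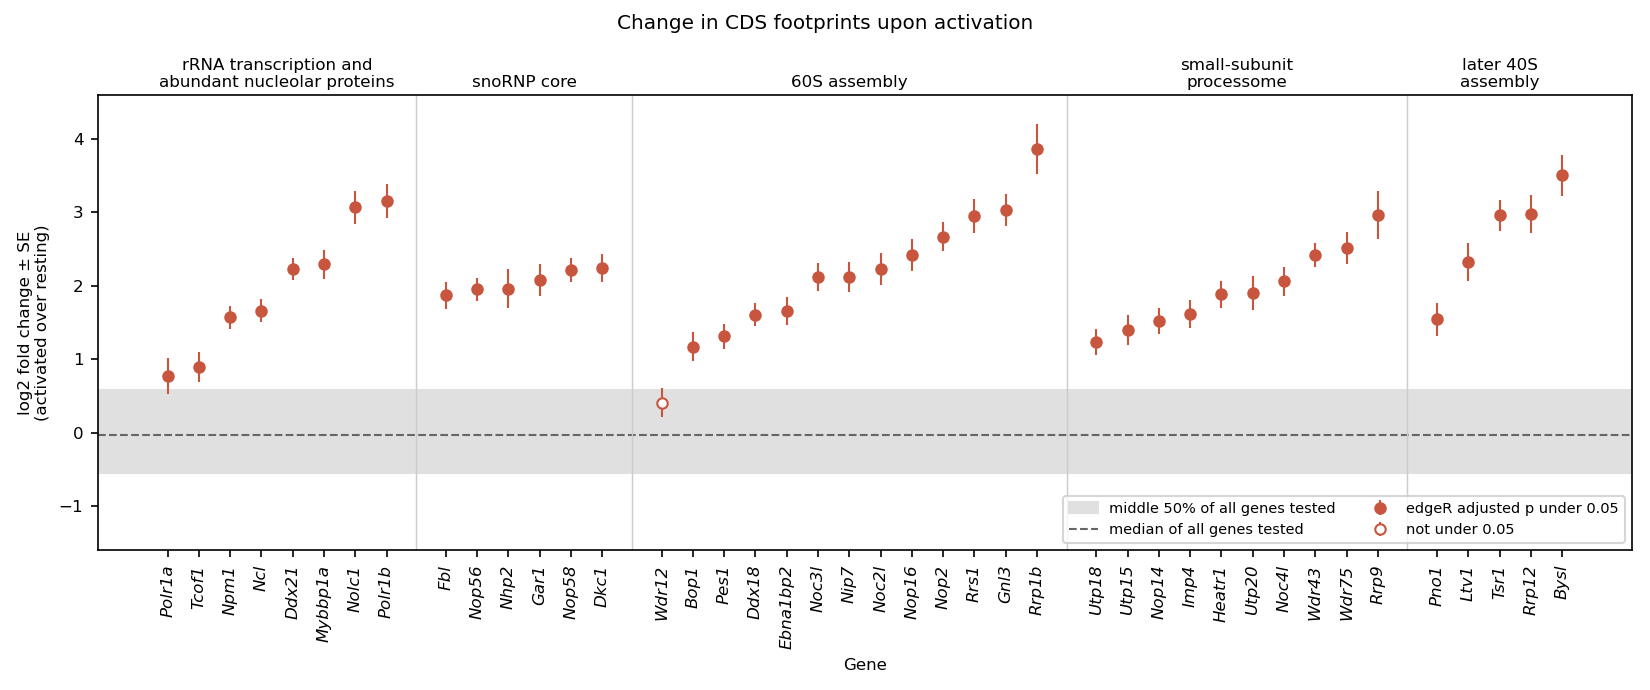
Log2 fold change of CDS footprints (activated over resting, points) with its standard error (bars) for each gene by role. The grey band holds the middle 50% of all 6775 genes tested and the dashed line is their median of -0.04. Wdr12, the open point at 0.40, lies within the band, and the 41 filled points lie above it.

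The 6 snoRNP core proteins formed the most even group, with log2 changes between 1.87 and 2.24 (median 2.02). Of the 6, 3 rose by at least 4-fold, against 4.22% of all genes tested. Box C/D snoRNPs place methyl groups on rRNA riboses. Their methyltransferase fibrillarin (Fbl, ENSMUSG00000046865.6) had 193, 208 and 172 CPM in the resting libraries against 888, 625 and 589.7 CPM in the activated ones (replicates 2, 3 and 4), the lowest rise of this group (log2 change 1.87 with SE 0.18; edgeR, adjusted p = 4.50e-07). Nop56 (ENSMUSG00000027405.15), a scaffold subunit and the member of this group with the most counts (not per length), had 214, 209 and 255 CPM in the resting libraries against 988, 856 and 796 CPM in the activated ones (replicates 2, 3 and 4; log2 change 1.95 with SE 0.16; edgeR, adjusted p = 6.70e-08). Its partner Nop58 rose from 106 ± 5.86 to 492 ± 54.6 CPM (SD, n = 3), which is 4.65-fold. For each of these 3 genes the activated libraries were at least 2.84 times above the resting libraries.

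Box H/ACA snoRNPs convert uridines to pseudouridine. Their pseudouridine synthase dyskerin (Dkc1, ENSMUSG00000031403.13) had 42.1, 58.4 and 67.6 CPM in the resting libraries against 295, 258 and 257 CPM in the activated ones (replicates 2, 3 and 4), the highest rise of the group (log2 change 2.24 with SE 0.19; edgeR, adjusted p = 1.52e-07). The partner proteins Gar1 and Nhp2 rose 4.22-fold and 3.89-fold, from 35.6 ± 5.47 to 154 ± 25.0 CPM and from 23.2 ± 6.72 to 93.1 ± 16.2 CPM (SD, n = 3). Count ratios between partners moved little: the Nop56 to Nop58, Nop56 to Fbl, Gar1 to Dkc1, Nhp2 to Dkc1 and Gar1 to Nhp2 ratios changed by 0.840-, 1.08-, 0.884-, 0.833- and 1.06-fold. The groups overlapped in each of these 5 ratios (exact two-sided permutation p between 0.3 and 0.8). Such a test does not show that the ratios were equal.

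All 10 genes of the small-subunit processome rose by at least 2-fold, against 14.7% of all genes tested. At least 4-fold rises were seen in 4 of them, against 4.22%, and the median log2 change was 1.89. The greatest rise was that of Rrp9 (ENSMUSG00000041506.13), the protein specific to the U3 snoRNP that base-pairs with pre-rRNA. It had 16.8, 17.8 and 32.3 CPM in the resting libraries against 270.4, 127 and 155 CPM in the activated ones (replicates 2, 3 and 4; log2 change 2.96 with SE 0.32; edgeR, adjusted p = 1.69e-06). Its resting values rest on 8, 11 and 21 counts. Activated replicate 2 was far above the other two, and the lowest activated value was 3.93 times the highest resting value. The smallest rise was that of Utp18 (ENSMUSG00000054079.11), a processome subunit, with 71.5, 84.3 and 83.0 CPM in the resting libraries against 207, 168 and 193 CPM in the activated ones (replicates 2, 3 and 4; log2 change 1.23 with SE 0.18; edgeR, adjusted p = 3.18e-05). Its groups were still separated by a factor of 2.00.

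The UTP-A subcomplex binds nascent pre-rRNA first and is represented by Wdr43, Wdr75, Utp15 and Heatr1. Wdr43 (ENSMUSG00000041057.9), the processome member with the most counts (not per length), had 84.1, 86.0 and 95.3 CPM in the resting libraries against 545, 436 and 448 CPM in the activated ones (replicates 2, 3 and 4; log2 change 2.42 with SE 0.17; edgeR, adjusted p = 1.64e-08). Wdr75 rose 5.71-fold, Heatr1 3.68-fold and Utp15 2.62-fold. Relative to Heatr1 counts of the same library, Wdr43 counts were 1.45-fold and Wdr75 counts 1.66-fold higher in activated than in resting cells. Neither ratio overlapped between the groups (exact two-sided permutation p = 0.1 for each, again the smallest possible, adjusted 0.26). The Utp15 to Heatr1 ratio changed 0.719-fold with overlapping groups (exact two-sided permutation p = 0.3). Of the remaining processome genes, Noc4l and its binding partner Nop14 rose 4.16-fold and 2.87-fold, the U3 snoRNP protein gene Imp4 3.07-fold and the large scaffold gene Utp20 3.72-fold.

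**Figure D4:**
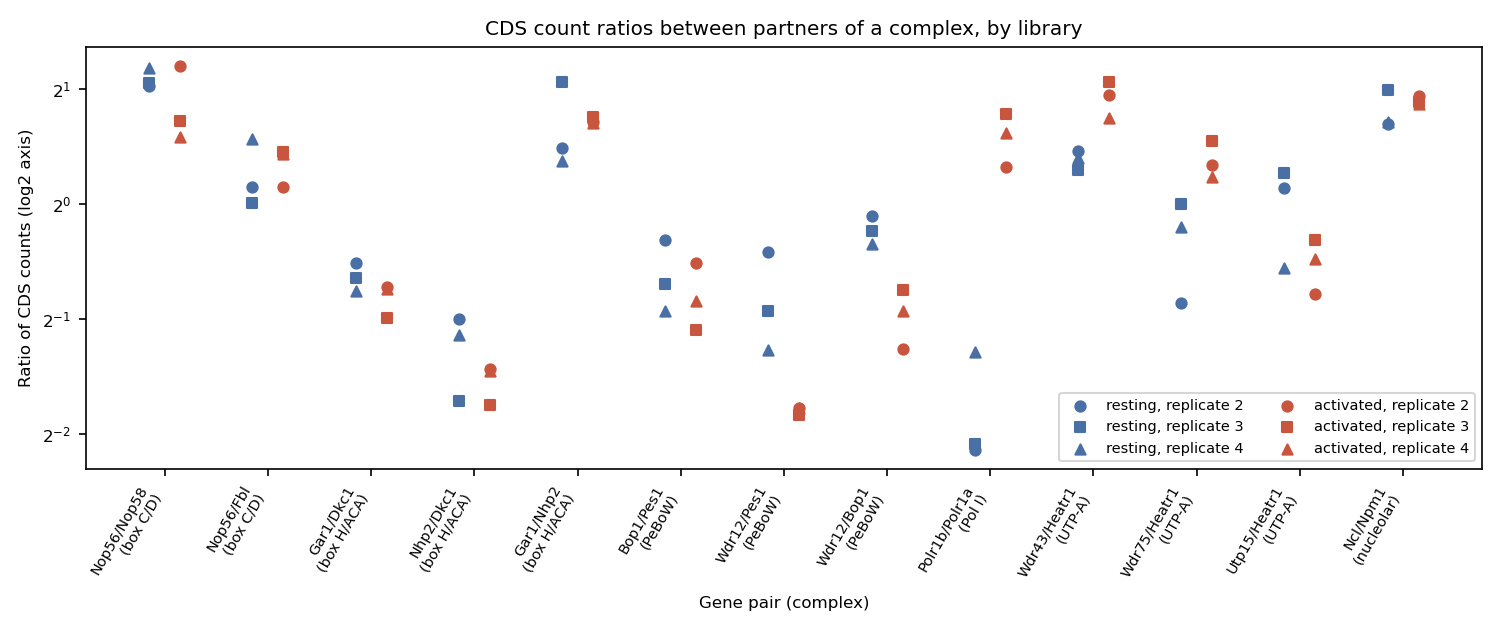
Ratio of CDS counts between 2 genes of a complex (log2 axis) in each library, for the 13 pairs compared. Blue points are resting and red points activated libraries. The Polr1b to Polr1a ratio goes from 0.227 to 0.409 in resting up to 1.25 to 1.73 in activated cells, and the Wdr12 ratios to Pes1 and Bop1 lie lower in activated cells, while the snoRNP pairs overlap.

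The 5 factors of later 40S assembly had the highest median log2 change of the roles, 2.96. Of the 5, 4 rose by at least 4-fold, against 4.22% of all genes tested. This median and count include Bysl, which was tested because it was higher in activated cells. Bysl (ENSMUSG00000023988.8), which encodes bystin, had 18.9, 16.2 and 7.69 CPM in the resting libraries against 186, 149.6 and 146 CPM in the activated ones (replicates 2, 3 and 4). The groups were separated by a factor of 7.71, and the log2 change was 3.502 with SE 0.28 (edgeR, adjusted p = 6.04e-08). Its resting values rest on 9, 10 and 5 counts. Because of the way Bysl came to be tested, its separation and adjusted p are given as values only. Tsr1 (ENSMUSG00000038335.12), a GTPase-like factor of pre-40S particles and the member of this group with the most counts (not per length), had 31.5, 40.6 and 47.6 CPM in the resting libraries against 282, 282 and 378 CPM in the activated ones (replicates 2, 3 and 4; log2 change 2.96 with SE 0.21; edgeR, adjusted p = 2.02e-08). Rrp12, a factor of pre-ribosome export, rose 7.87-fold from 28.6 ± 8.51 to 233 ± 61.1 CPM (SD, n = 3). Ltv1, needed for 40S maturation, rose 5.01-fold from 36.6 ± 16.3 to 189.9 ± 35.1 CPM. Pno1 (ENSMUSG00000020116.7), which holds the precursor of the 3' end of 18S rRNA, rose least, from 56.8, 34.1 and 61.5 CPM to 170.4, 143 and 134 CPM in replicates 2, 3 and 4 (log2 change 1.54 with SE 0.22; edgeR, adjusted p = 3.58e-05).

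Of the 13 factors of 60S assembly, 12 rose by at least 2-fold, against 14.7% of all genes tested. At least 4-fold rises were seen in 8, against 4.22%, and Wdr12 did not pass the test. These counts and the range and median that follow include Rrp1b, which was tested because it was higher in activated cells. The group ranged more widely than any other, with log2 changes from 0.40 to 3.86 and a median of 2.12. Rrp1b (ENSMUSG00000058392.11), a nucleolar protein of the RRP1 family, had 8.41, 12.98 and 7.69 CPM in the resting libraries against 207, 112 and 127 CPM in the activated ones (replicates 2, 3 and 4). Its log2 change was 3.86 with SE 0.34 (edgeR, adjusted p = 1.76e-07), the largest of the 42 genes, on 4, 8 and 5 resting counts. The lowest activated value was 8.62 times the highest resting value. Because of the way Rrp1b came to be tested, this factor, its rank and its adjusted p are given as values only. Gnl3 (nucleostemin, a nucleolar GTP-binding protein of proliferating cells) rose 8.15-fold, from 35.4 ± 12.5 to 298 ± 17.9 CPM (SD, n = 3; edgeR adjusted p = 2.27e-08). Rrs1, which brings the 5S particle into the pre-60S subunit, rose 7.73-fold, and Nop2, a methyltransferase of 28S rRNA, 6.36-fold. Ddx18 (ENSMUSG00000001674.10), an RNA helicase and the 60S member with the most counts (not per length), had 137, 177 and 158 CPM in the resting libraries against 477, 437 and 527 CPM in the activated ones (replicates 2, 3 and 4; log2 change 1.61 with SE 0.16; edgeR, adjusted p = 6.32e-07). Nop16, Noc2l, Nip7, Noc3l and Ebna1bp2 rose 5.34-, 4.70-, 4.36-, 4.32- and 3.15-fold.

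Pes1, Bop1 and Wdr12 form the PeBoW complex, which is needed for maturation of 28S and 5.8S rRNA, and they had the 3 lowest changes of the 60S group. Pes1 rose 2.48-fold from 141 ± 27.5 to 353 ± 28.1 CPM and Bop1 2.25-fold from 89.1 ± 9.53 to 204 ± 50.0 CPM (SD, n = 3; edgeR adjusted p = 1.20e-05 and 1.73e-04). Wdr12 (ENSMUSG00000026019.14) had 82.0, 84.3 and 63.0 CPM in the resting libraries against 109, 102 and 93.7 CPM in the activated ones (replicates 2, 3 and 4). The groups did not overlap, but they lay only a factor of 1.11 apart. The log2 change was 0.40 with SE 0.20 (edgeR, adjusted p = 0.105), and it lay between 0.07 and 0.50 over 17 alternative settings, in none of which it passed the threshold. Relative to Pes1 counts, Wdr12 counts were 0.750, 0.525 and 0.414 in the resting libraries against 0.293, 0.279 and 0.292 in the activated ones. Relative to Bop1 counts they were 0.929, 0.852 and 0.788 in the resting libraries against 0.417, 0.596 and 0.524 in the activated ones. Both ratios were separated between the groups (exact two-sided permutation p = 0.1 for each, again the smallest possible, adjusted 0.26), with 0.527-fold and 0.593-fold changes. The Bop1 to Pes1 ratio overlapped between the groups (0.889-fold, exact two-sided permutation p = 0.6).

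Footprints in the 5' UTR (the leader before the start codon) were set against CDS counts of the same gene. The 42 genes had 4137 leader counts over the 6 libraries, of which Ncl and Npm1 held 55.9%. Of the members, 26 had the 20 leader counts needed for testing. Relative to the CDS, 0 of the 26 passed the test at an edgeR adjusted p under 0.05 (1 at an unadjusted p under 0.05), against 0.495% of 3636 genes tested (0.165% higher and 0.33% lower). At an unadjusted p under 0.05, 406 of the 3636 genes passed. Here leader and CDS were each scaled on their own, and the median log2 change of the ratio was -0.03 over the 26 members and 0.03 over all genes tested. The gene with the unadjusted p under 0.05 was Fbl, with 6 leader counts in resting cells and 80 after activation. Its log2 change was 1.24 with SE 0.57 (edgeR, adjusted p = 0.410). Without an adjusted call this change is given as a value only.

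Leader counts per 100 CDS counts had a median of 6.39 over the 42 genes and 8.68 over all 6775 genes tested for the CDS. With the libraries pooled, Wdr12 had the highest value of the members, and by library it stood at 41.0, 40.4 and 41.5 in the resting libraries against 47.9, 51.9 and 46.6 in the activated ones. Each activated library lay above each resting library, but after leader and CDS were scaled separately the log2 change was -0.06 (SE 0.34, edgeR adjusted p = 0.977). Ncl had 24.6, 17.1 and 14.6 in the resting libraries against 34.2, 26.1 and 19.9 in the activated ones, where the groups overlapped. At the other end, Noc2l, Bop1, Mybbp1a and Tsr1 had 0 leader counts in all 6 libraries. The lengths of their annotated leaders were not used here.

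Introns gave a different picture from the CDS for the members that contain genes of small nucleolar RNAs (snoRNAs), the guide RNAs of the snoRNPs described above. RefSeq (GRCm38.p6) places 19 snoRNA genes within the spans of 7 members, namely Nop56, Ncl, Gnl3, Wdr43, Nop58, Dkc1 and Tsr1. These 7 held 98.4% of the 4394 intron counts of the 42 genes, and no other member had more than 10. Nop56 (chromosome 2, 130274367 to 130279313), which contains Snord57 and Snord110 among others, held 57.3% of them. Ncl (chromosome 1, 86344719 to 86359455; Snora75 and Snord82) held 21.1% and Gnl3 (chromosome 14, 31012433 to 31019131; Snord19 and Snord69) 17.3%. Dkc1 and Tsr1 had only 8 and 6 intron counts. Whether the counted fragments came from ribosomes, snoRNAs or unspliced RNA was not tested.

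These intron counts did not follow the rise in the CDS. Nop56 had 641, 353 and 447 intron counts in the resting libraries against 285, 345 and 447 in the activated ones, while its CDS counts went from 102, 129 and 166 to 435, 681 and 748. Per 100 CDS counts this is 628, 274 and 269 in the resting libraries against 65.5, 50.7 and 59.8 in the activated ones, a log2 change of -2.61 with SE 0.41 (edgeR, adjusted p = 0.00632). In Gnl3 the values were 1960.0, 342 and 311 in the resting libraries against 90, 53.8 and 50.4 in the activated ones (log2 change -3.14 with SE 0.62; edgeR, adjusted p = 0.0156). In Ncl they were 70.9, 23.1 and 29.4 in the resting libraries against 10.2, 8.76 and 4.98 in the activated ones (log2 change -2.25 with SE 0.49; edgeR, adjusted p = 0.0188). Wdr43 and Nop58 fell as well on this ratio, with log2 changes of -2.27 and -3.27 (edgeR adjusted p = 0.0311 and 0.0271), the latter on 33 intron counts in all.

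All 5 members with the 20 intron counts needed for testing fell on this ratio, against 7.7% of 610 genes tested. Summed over all genes, intron counts per 100 CDS counts were 9.22, 25.1 and 16.4 in the resting libraries against 7.31, 6.94 and 10.3 in the activated ones (replicates 2, 3 and 4). The means were 16.9 ± 7.96 in resting cells and 8.18 ± 1.85 after activation (SD, n = 3), but the groups overlapped. Resting replicate 2 was the lowest resting library on this sum. The median log2 change of the ratio over the 610 genes was -0.07. The part of this difference between the means in the members' fall was not tested. The ratio contains the CDS counts whose rise is described above, so the fall is not a separate result for the CDS. On intron counts alone 0 of these 5 genes passed the threshold, against 12.1% of the 610 genes, with log2 changes between -1.09 (Nop58) and 0.10 (Wdr43), SE between 0.43 and 0.77 and edgeR adjusted p between 0.345 and 0.944. Resting replicate 2 had the highest ratio in all 5 genes. Without it, the ratio fell for 3 of the 5 genes at an adjusted p under 0.05, and the log2 change was -2.22 for Nop56, -1.78 for Ncl and -2.39 for Gnl3. Without activated replicate 4, 3 of the 5 passed as well, and without resting replicate 3, 4 did. The share of all genes called was not examined in the fits with a library left out. Without resting replicate 4 or activated replicate 3, 0 of the 5 genes passed, although the log2 changes of these 3 genes were then between -2.35 and -3.62 (edgeR adjusted p between 0.0535 and 0.0975).

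**Figure D5:**
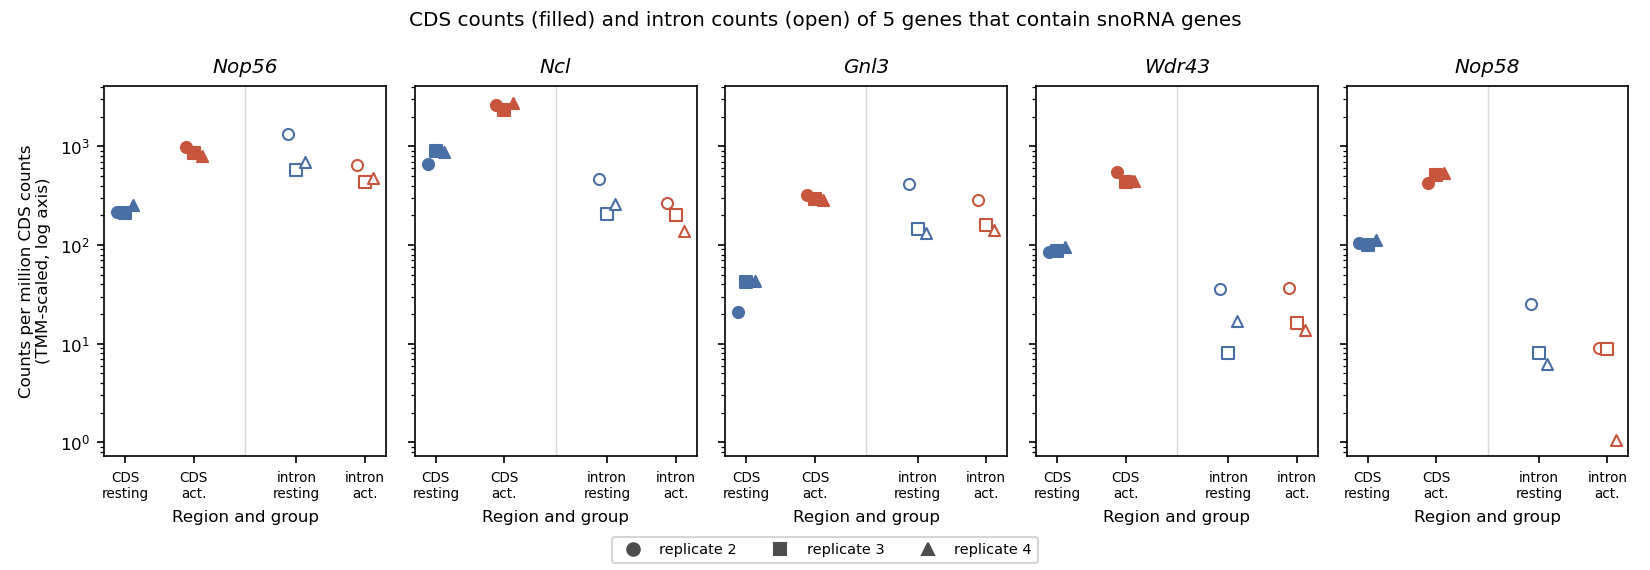
CDS counts (filled) and intron counts (open) in CPM relative to CDS library sizes (TMM-scaled, log axis) for Nop56, Ncl, Gnl3, Wdr43 and Nop58, with 1 point per library, blue for resting and red for activated. Filled points are higher in activated cells in each panel, and open points of the groups overlap in each panel.

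Counts in the 3' UTR were few, at 155 over all 42 genes and 6 libraries beside 43405 CDS counts. Per 100 CDS counts the members had 0.490 ± 0.135 in resting cells and 0.382 ± 0.253 after activation (SD, n = 3), against 3.19 ± 1.15 and 2.66 ± 1.49 for all genes. The highest count of any member in a library was that of Ncl, with 9 in activated replicates 2 and 3.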

How the data were processed

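Footprint reads were aligned with TopHat2 2.0.13 and Bowtie 1.1.1.0 to mm10 and counted with HTSeq, per the submitters' processing notes. The authors deposited raw counts for 22322 genes in 36 columns, 6 per library (CDS, UTRs, exons, introns). HTSeq's summary entries (65.8% to 79.6% not unique, 11.8% to 14.5% without a feature) were left out of tests. Symbols come from the list that defines the 42 genes. The members, roles and gene pairs were chosen with earlier results of these data known, and the intron tests were added after seeing the data. Any member could be named. CDS values per library were given, in each role, for the highest and lowest change, the most counts, and every gene not called.

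CDS counts passing filterByExpr were TMM-scaled and tested with edgeR 4.0.16 (glmQLFit, R 4.3.3; Benjamini-Hochberg over all genes tested). Leader and intron counts were tested against CDS counts by an interaction term, from 20 counts up, introns on the CDS scaling. CPM are TMM-scaled. Scripts were tested on simulated data. Replicate numbers were not used as pairs. Levels were not compared between genes, for lack of coding lengths. Other pathway genes and cell markers were not analysed here.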

Additional observations from a re-analysis of the deposited data

How the results depend on the processing

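With TMM scaling and the deposited counts, 41 members were higher and 0 lower. Both counts held under DESeq2 1.42.0, limma-voom and the other settings run, except that 40 were higher with library totals alone, without resting replicate 4, without activated replicate 2 and at an adjusted p under 0.01. A fit with the replicate number as a block gave 41 higher, and 1789 higher and 1666 lower over all genes. Deviations from the group means correlated at 0.12, 0.07 and 0.22 between same-numbered libraries and at -0.15 to 0 between others. Each library thus correlated best with its own number, a hint from the data and not from the design. Within a group the deviations of a gene sum to 0, so the values of a library cannot all be positive. The contrast therefore cannot decide whether libraries were paired. Single-gene calls were lost only for Polr1a, in the 3 settings given with it and at an adjusted p under 0.01, and no direction reversed. Leader results stayed at 0 members called, while the count over all genes, 18, was 0 with 1 scaling for both regions, 20 with the block, 21 with either stricter filter and between 1 (without resting replicate 3) and 24 (without activated replicate 4) with a library left out. The count of members with a lower intron to CDS ratio was 5, and lay between 0 and 5 when each library was left out in turn (3 without resting replicate 2, 0 without resting replicate 4, 0 without activated replicate 3 and 3 without activated replicate 4); the cause was not tested. For these intron fits with a library left out, the share of all genes called was not examined. Depth limits Rrp1b, Bysl and Rrp9, the 3 members with under 10 counts in a resting library.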
